A study of Monascus purpureus with 6 samples.

Results

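In the yeast Saccharomyces cerevisiae, sulphate is activated by ATP sulfurylase and reduced to sulphide. The sulphide is joined to a carbon chain made from homoserine to give homocysteine. Whether Monascus purpureus takes this route was not tested here. Methionine synthase adds a methyl group to homocysteine, and S-adenosylmethionine synthetase turns methionine into S-adenosylmethionine, the methyl donor of most cellular methylation. Each methylation leaves S-adenosylhomocysteine, which is split back to homocysteine, so the methyl cycle closes; homocysteine sulphur can also leave toward cysteine through cystathionine.

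The genes described here are 7 of the 9836 in the deposited tables: MET3 (gene-MAP00_007667), MET2 (gene-MAP00_001521), MET26 (gene-MAP00_001884), ETH1 (gene-MAP00_000342), CHO2 (gene-MAP00_000740), SAH1 (gene-MAP00_000396) and CYS3 (gene-MAP00_003200). By these names none stands for the reduction of sulphate or for the joining of sulphide to the carbon chain. They were selected on their symbols and on their metal-ion over control fold changes and calls, which were already known. Their group differences are therefore a description and support nothing by themselves. The annotation gives symbols without products. Roles below follow the sense of each symbol in Saccharomyces cerevisiae, except MET26, which is a Schizosaccharomyces pombe name, and ETH1, which is a Neurospora crassa name. MET2, MET3 and CYS3 name other genes in Neurospora crassa, where cys-3 is a sulphur regulator, and the annotation does not say which sense was meant.

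RNA sequencing covered mycelia of wild-type Monascus purpureus strain MP2022, a filamentous fungus known for red pigments, at day 1. The label of the 3 metal-ion libraries gives MgSO4·2H2O at 2.5 g/L and ZnSO4·2H2O at 0.0 g/L. That of the 3 control libraries names MgSO4·2H2O at 1.0 g/L and ZnSO4·2H2O at 2.0 g/L but calls the mycelia untreated with them, so whether the control medium held these amounts cannot be read from it. Both salts are sulphates. The study set out to find a zinc to magnesium ratio that serves ethanol and pigment production together. Libraries held 35314601 to 38927910 counts in the metal-ion group and 33638067 to 36537672 in the control group. Metal-ion replicate 2 stood apart: along the leading principal component of the log2 CPM values (48.6% of variance) it scored 9.78, against 30.4 and 31.8 for the other metal-ion libraries and -27.9 to -21.3 for control libraries. None of 10 symbols of spore formation matched the annotation, so the label mycelia was not checked against markers.

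In metal-ion mycelia, mRNA of 6 of the 7 genes stood higher than in control mycelia and that of CYS3 stood lower. MET26, for the step that makes methionine, had the largest difference of the 7, at 2.78-fold, followed by ETH1 at 1.97-fold and MET3 at 1.90-fold. SAH1, MET2 and CHO2 were 1.51-fold, 1.40-fold and 1.39-fold higher, and CYS3 was at 0.776 of its control level. In the edgeR fit over 9048 genes all 7 were called at an adjusted p under 0.05, with adjusted p from 0.000121 for MET26 to 0.0401 for SAH1. Of all tested genes 12.0% were called, 6.66% as higher and 5.32% as lower in metal-ion mycelia. These were 603 higher and 481 lower genes with TMM scaling, which sets aside a shift shared by most genes, 860 higher and 344 lower genes with total counts alone, and 782 higher and 328 lower genes with limma on log2(FPKM + 1). The median over all tested genes was 0.03 on the log2 scale with TMM and 0.14 with total counts. The groups did not overlap for any of the 7 genes, as for 33.3% of tested genes. These shares enter no comparison with the members, since the same contrast was known when they were picked. Levels are shares of the counted RNA, so more RNA of a gene and less of the rest cannot be told apart.

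Together the 7 genes took 0.821, 1.03 and 0.860% of all counts in metal-ion replicates 1, 2 and 3, against 0.412, 0.378 and 0.429% in control replicates 1, 2 and 3. MET26 alone took 0.464, 0.567 and 0.484% in the metal-ion libraries, against 0.174, 0.153 and 0.181% in control libraries. MET26 thus made up more of the sum than the other 6 together in every metal-ion library. The lowest count of any member in any library was 2477 and the highest 220545.

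**Figure D1:**
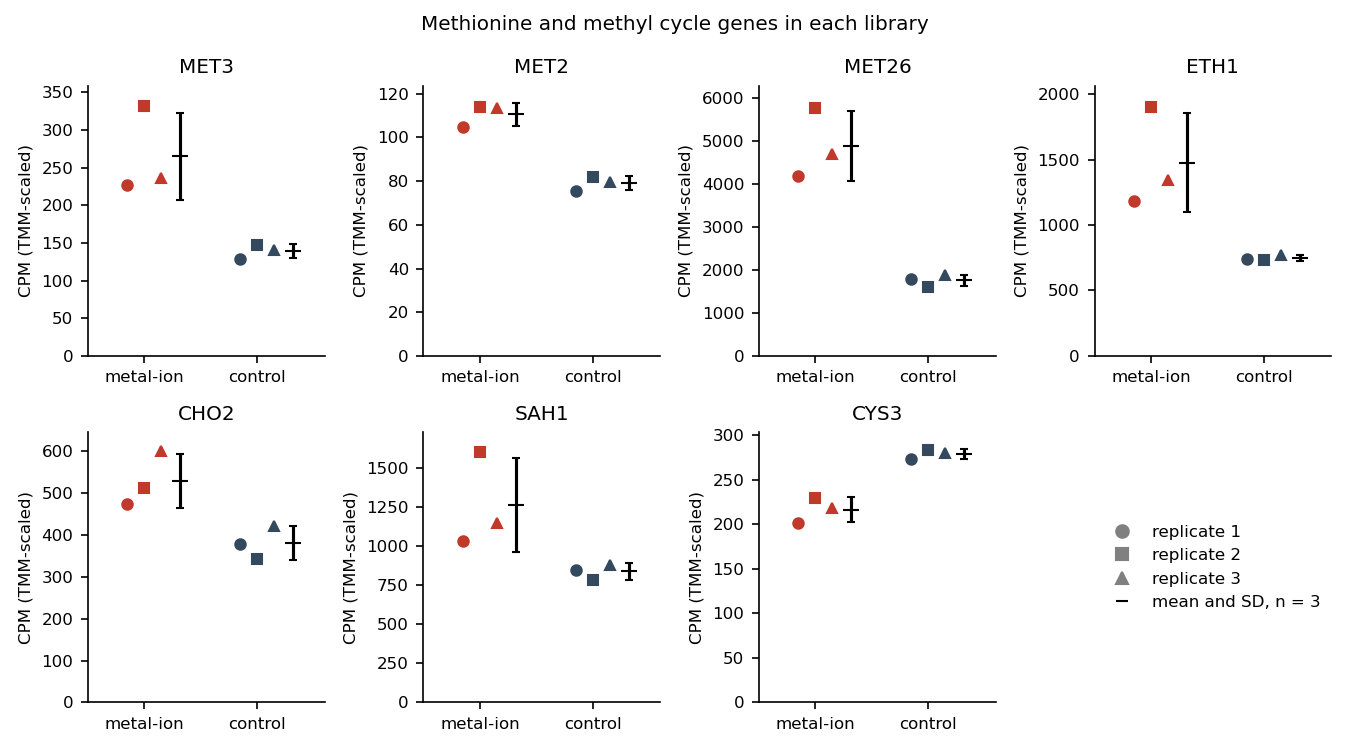
TMM-scaled CPM (y axis, from 0) for the 7 genes in each metal-ion library (red) and control library (dark blue). Marker shapes give the replicate number and black bars the mean and SD of 3 libraries. No gene's groups overlap, CYS3 is the only one of the 7 that is lower in metal-ion libraries, and the square of replicate 2 is the highest metal-ion point in 6 of 7 panels.

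At the entry of sulphate, MET3, named for ATP sulfurylase, had 227, 331 and 236 CPM in metal-ion replicates 1 to 3, against 129, 148 and 141 CPM in control replicates 1 to 3. Replicate 2 stood well above its fellow metal-ion libraries, which lay close together. The group means were 265 ± 57.7 CPM in metal-ion mycelia and 139 ± 9.33 CPM in control mycelia (SD, n = 3 each), a log2 fold change of 0.93 ± 0.14 (SE). Leaving out metal-ion replicate 2 gave 0.73 for MET3.

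MET2, named for homoserine O-acetyltransferase, which activates the homoserine that will carry the sulphur, had 105, 114 and 113 CPM in metal-ion replicates 1 to 3, against 75.6, 82.1 and 79.8 CPM in control replicates 1 to 3. It was the evenest of the 6 higher genes within the metal-ion group. The means were 111 ± 5.12 CPM in metal-ion mycelia and 79.2 ± 3.31 CPM in control mycelia (SD, n = 3 each), a log2 fold change of 0.48 ± 0.09 (SE). Its call was lost without control replicate 1 (edgeR adjusted p = 0.0574).

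MET26, named for the methionine synthase that works without cobalamin and passes a folate-bound methyl group to homocysteine, had 4189, 5772 and 4698 CPM in metal-ion replicates 1 to 3, against 1783, 1613 and 1877 CPM in control replicates 1 to 3. The lowest metal-ion library lay at 2.23 times the highest control library, the widest gap among the 7 genes. The log2 fold change was 1.47 ± 0.15 (SE), and 1.33 without metal-ion replicate 2. By log2 fold change it was number 132 from the top among 9048 tested genes. This enzyme family binds a zinc ion at its active site.

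ETH1, named for S-adenosylmethionine synthetase, had 1182, 1904 and 1341 CPM in metal-ion replicates 1 to 3, against 743, 730.5 and 769.6 CPM in control replicates 1 to 3. The control libraries were nearly level, while replicate 2 stood far above the other metal-ion libraries, all of which lay above control. The means were 1476 ± 379.8 CPM in metal-ion mycelia and 748 ± 20.0 CPM in control mycelia (SD, n = 3 each), which gives coefficients of variation of 25.7% in metal-ion and 2.67% in control libraries. The log2 fold change was 0.98 ± 0.17 (SE), and 0.75 without metal-ion replicate 2, where the fold was 1.68.

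CHO2, named for the methyltransferase that puts the first methyl group on phosphatidylethanolamine on the way to phosphatidylcholine, is a consumer of S-adenosylmethionine. It had 474, 512 and 601 CPM in metal-ion replicates 1 to 3, against 378, 341.5 and 421 CPM in control replicates 1 to 3. Its groups came nearest to each other of the 7, with the lowest metal-ion library at 1.13 times the highest control library, and replicate 3 was the highest library of both groups. The log2 fold change was 0.48 ± 0.13 (SE). The call was lost without any one of the 3 control replicates or metal-ion replicate 3 (edgeR adjusted p of 0.0709 to 0.171 in these 4 fits).

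SAH1, named for S-adenosylhomocysteine hydrolase, which removes the product that inhibits methyltransferases and gives homocysteine back, had 1032, 1601 and 1148 CPM in metal-ion replicates 1 to 3, against 849, 779.8 and 881 CPM in control replicates 1 to 3. Replicate 2 was far above the other metal-ion libraries, and replicate 1 was 1.17 times the highest control library. The log2 fold change was 0.59 ± 0.16 (SE) with all libraries and 0.38 without metal-ion replicate 2, a fold of 1.51 and of 1.30. The call was lost without any one of the 3 control replicates or metal-ion replicate 3 (edgeR adjusted p of 0.087 to 0.165 in these 4 fits), and was kept without metal-ion replicate 1 or 2.

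CYS3, named for cystathionine gamma-lyase, which releases cysteine from cystathionine, went the other way. It had 202, 229.8 and 218 CPM in metal-ion replicates 1 to 3, against 273, 284 and 280.1 CPM in control replicates 1 to 3. All metal-ion libraries lay below all control libraries. The means were 216 ± 14.2 CPM in metal-ion mycelia and 279 ± 5.42 CPM in control mycelia (SD, n = 3 each), a log2 fold change of -0.37 ± 0.10 (SE). It stayed negative under every scaling tried, at -0.26 with total counts alone, where it was not called (edgeR adjusted p = 0.063). Leaving out any control library, or metal-ion replicate 1 or 3, also ended its call (edgeR adjusted p of 0.0993 to 0.13 in these 5 fits).

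**Figure D2:**
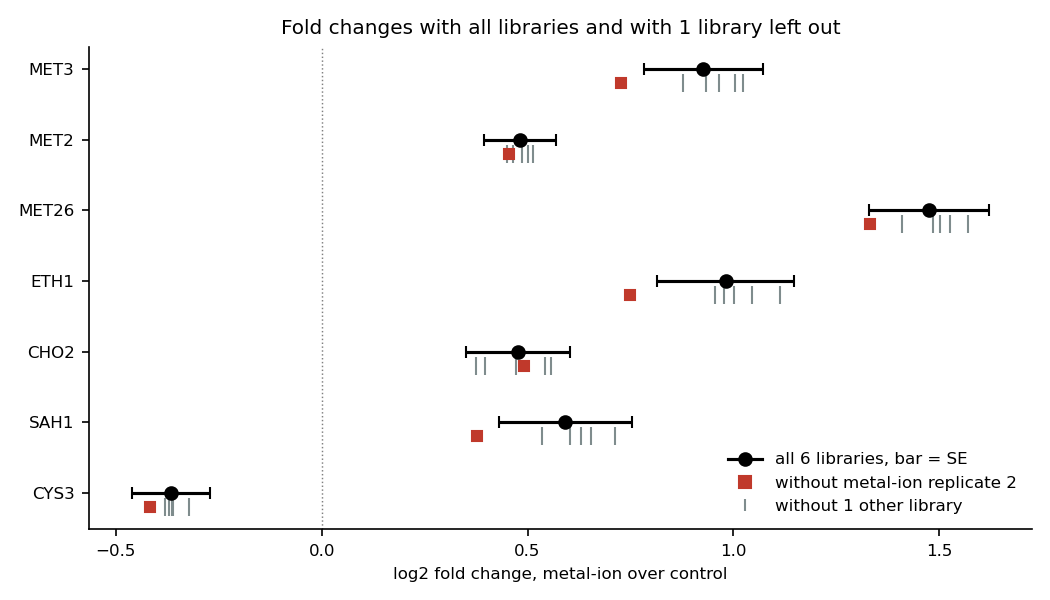
Log2 fold change of metal-ion over control (x axis) for each gene (y axis) in the edgeR fit with all 6 libraries (black points, bars are SE), without metal-ion replicate 2 (red squares) and without each other library (grey ticks). Every gene keeps its sign in all 7 fits, and the red square is the lowest value for MET3, MET26, ETH1, SAH1 and CYS3.

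The members differed in how metal-ion replicate 2 related to replicates 1 and 3. On TMM-scaled CPM it was 1.51 times the mean of replicates 1 and 3 for ETH1, 1.47 times for SAH1, 1.43 times for MET3 and 1.30 times for MET26. For CYS3, MET2 and CHO2 the same ratio was 1.10, 1.04 and 0.953. Over all 9048 tested genes the ratio had a median of 0.992, with a 5th percentile of 0.572 and a 95th of 1.54. That library was the highest of its group for 6 of the 7 members, against 37.9% of tested genes and 23.2% of genes called higher in metal-ion mycelia. The 6 include CYS3, which was called lower, and that library was the highest for 83.0% of the 481 genes called lower. Of the 603 genes called higher it was the lowest metal-ion library for 325.

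The scale matters for that library, because its TMM factor was 0.982, against 1.11 and 1.03 for metal-ion replicates 1 and 3. On the deposited FPKM values, which are scaled to library totals, replicate 2 was the highest metal-ion library for 5 of the 7 members. It was the lowest for MET2 and CHO2. Of all tested genes it was the highest for 24.4% on that scale. Its ratio to the mean of replicates 1 and 3 had a median of 0.905 over these genes, with a 5th percentile of 0.518 and a 95th of 1.41. MET2 and CHO2, at 0.954 and 0.873, lay on either side of that median, and CYS3, at 1.00, lay above it. The FPKM ratios of replicate 2 to the mean of replicates 1 and 3 were 1.38 for ETH1, 1.34 for SAH1, 1.31 for MET3 and 1.19 for MET26, so these 4 genes stood higher there on both scales. CYS3 was level on that scale, at 110.6, 110.7 and 110.4 FPKM in metal-ion replicates 1 to 3, against 130.0, 133 and 133 FPKM in control replicates 1 to 3. What set metal-ion replicate 2 apart was not tested.

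Levels of different genes can be compared per length, as FPKM. In metal-ion mycelia the order was MET26 at 1657 ± 172 FPKM, SAH1 at 769 ± 137, ETH1 at 747 ± 147, MET3 at 128 ± 20.7, CYS3 at 110.5 ± 0.165, CHO2 at 97.7 ± 10.9 and MET2 at 79.9 ± 2.14 FPKM (SD, n = 3). In control mycelia it was MET26 at 555 ± 47.0 FPKM, SAH1 at 476 ± 33.6, ETH1 at 353 ± 12.1, CYS3 at 132 ± 1.71, CHO2 at 65.0 ± 7.27, MET3 at 62.6 ± 3.70 and MET2 at 52.9 ± 1.82 FPKM (SD, n = 3). MET26, SAH1 and ETH1 of the methyl cycle thus stood well above the 4 genes of sulphur entry, homoserine activation, lipid methylation and cysteine release in both groups. In metal-ion libraries the values of SAH1 and ETH1 overlapped; in control libraries those of MET26 and SAH1 overlapped, and those of CHO2 and MET3. MET26 was number 46 of 9836 genes by mean FPKM in metal-ion mycelia and number 210 in control mycelia.

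**Figure D3:**
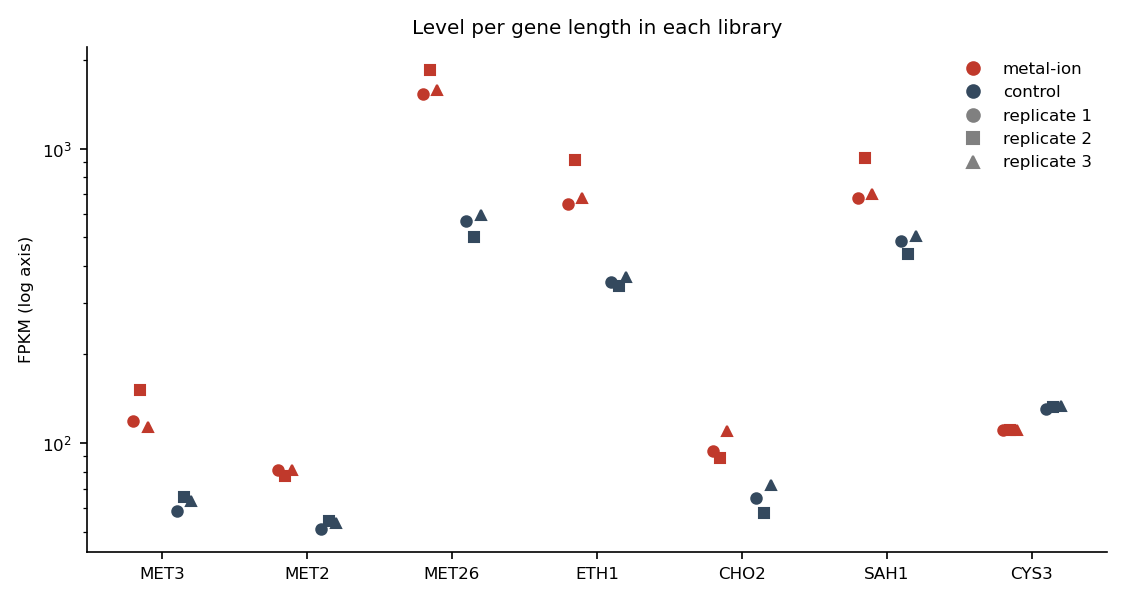
Deposited FPKM values (y axis, log scale) of the 7 genes in each metal-ion library (red, left of each pair) and control library (dark blue), with replicate numbers by marker shape. MET26, SAH1 and ETH1 form the upper tier in both groups, and MET3 lies above CYS3 in metal-ion libraries and below it in control libraries.

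Ratios of FPKM within a library set neighbouring steps against each other and do not depend on how libraries are scaled. MET26 over SAH1 was 2.25, 2.00 and 2.27 in metal-ion replicates 1 to 3, against 1.16, 1.15 and 1.18 in control replicates 1 to 3. Relative to the mRNA of the step that returns homocysteine, methionine synthase mRNA was thus higher in every metal-ion library. MET26 over ETH1 was 2.24 ± 0.191 in metal-ion and 1.57 ± 0.0825 in control libraries (SD, n = 3 each), again without overlap. ETH1 over SAH1 was 0.969 ± 0.0184 in metal-ion and 0.743 ± 0.0298 in control libraries, and did not overlap although each of these genes varied widely among metal-ion libraries. That ratio was 0.987 in metal-ion replicate 2, where both genes were highest, and 0.951 and 0.970 in replicates 1 and 3.

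MET3 over CYS3, sulphur entry against cysteine release, was 1.07, 1.37 and 1.03 in metal-ion replicates 1 to 3, against 0.450, 0.495 and 0.478 in control replicates 1 to 3, so the order of these genes was opposite in the groups. MET2 over MET3 was 0.636 ± 0.110 in metal-ion and 0.845 ± 0.0215 in control libraries (SD, n = 3 each) and did not overlap. CHO2 over SAH1 was 0.138, 0.0960 and 0.157 in metal-ion replicates 1 to 3, against 0.134, 0.132 and 0.143 in control replicates 1 to 3, and these values overlapped. As the fold changes were known, no test was made of these ratios.

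None of the 7 gene models overlapped another in the annotation. Of the 28 genes that lie 1 or 2 places from a member on either side, 27 were tested and 3 rose, 11.1% against the 6.66% of all tested genes. The 3, named here after their values were seen, were gene-MAP00_007668 next to MET3 at a log2 fold change of 0.86, gene-MAP00_000397 next to SAH1 at 0.71 and gene-MAP00_001522 next to MET2 at 0.49. No symbol is given for any of these 3. Log2 fold changes of the 27 ran from -0.44 to 0.86 with a median of 0.02, near the 0.03 of all tested genes. MET26, ETH1, CHO2 and CYS3 had no called gene within 2 places.

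Genes with a symbol whose log2 CPM followed MET26 most closely over the 6 libraries were ERG13_2, MPL6, THR1, SOD2 and GCH1, with Pearson r of 0.988, 0.985, 0.984, 0.984 and 0.980 among 830 candidates. All 5 rose, by very unequal amounts: 61.2-fold for SOD2, named for a superoxide dismutase, and 1.37-fold for THR1, named for the homoserine kinase that competes with MET2 for homoserine. MET2 was the member nearest to MET26, at r = 0.974, then ETH1 at 0.973, MET3 at 0.966, SAH1 at 0.916 and CHO2 at 0.892, and CYS3 stood at -0.889. Closest to CYS3 were TEF1, DPH5, NOG2, GEL2 and INT6, at r of 0.994, 0.992, 0.990, 0.989 and 0.988. The libraries fall into 2 groups, so r is high for any gene that separates them; these values are a description over 6 libraries.

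The other genes of S-adenosylmethionine metabolism with a symbol were 5, and 0 of them passed in edgeR, with 2 below 0.05 before adjustment. DESeq2 called 2 of them, where it called 1590 of all 9048 tested genes, and limma on FPKM called 0. Their median log2 fold change was -0.03, against 0.03 over all tested genes. MDE1, MRI1 and ADI1 belong to the salvage of methylthioadenosine, by which the sulphur and its methyl group left by polyamine synthesis return to methionine. MDE1 had 68.3 ± 16.7 CPM in metal-ion and 69.8 ± 5.49 CPM in control mycelia (SD, n = 3 each), a log2 fold change of -0.03 ± 0.15 (SE). MRI1 was at -0.12 ± 0.11 and ADI1 at 0.11 ± 0.09, and the libraries of all 3 salvage genes overlapped between groups.

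ARO8, an aminotransferase that completes the salvage route in yeast, had 161, 132 and 166 CPM in metal-ion replicates 1 to 3, against 121, 111 and 128 CPM in control replicates 1 to 3 (log2 fold change 0.35 ± 0.11, edgeR adjusted p = 0.0648). SPE3, named for spermidine synthase, had 553 ± 49.2 CPM in metal-ion and 669 ± 26.1 CPM in control mycelia (log2 fold change -0.27 ± 0.11, edgeR adjusted p = 0.128). The groups did not overlap for ARO8 or SPE3, and neither was called. That is 40.0% of the 5 genes of the list, against 33.3% of all tested genes. SPE3 and MRI1 each share bases with an adjacent gene model, and the libraries do not mark strand, so their counts are uncertain. Without metal-ion replicate 2, ARO8 rose and SPE3 and MRI1 fell (edgeR adjusted p = 0.00212, 0.00733 and 0.0372). In that fit 14.4% of all tested genes rose and 16.5% fell. MTD1, named for a folate dehydrogenase and the single gene matched in the folate list, had a log2 fold change of -0.21 ± 0.13 (edgeR adjusted p = 0.321).

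Methyltransferases spend S-adenosylmethionine, the product of the step ETH1 is named for. Of 19 tested, 6 fell (31.6%, against 5.32% of all tested genes) and 0 rose in edgeR, where 0 also rose at an unadjusted p under 0.05, in DESeq2 and in limma on FPKM. Their median log2 fold change was -0.23, against 0.03 over all tested genes, and 15 of the 19 were negative, or 13 with total counts alone. RMT1, named for a protein arginine methyltransferase, had 104, 182 and 109 CPM in metal-ion replicates 1 to 3, against 233, 240.2 and 231 CPM in control replicates 1 to 3 (log2 fold change -0.84 ± 0.19, edgeR adjusted p = 0.0197). RMT2, another gene named for arginine methylation, was at -0.83 ± 0.21 and NOP1, named for the fibrillarin that methylates ribosomal RNA, at -0.59 ± 0.14. In these 3 genes metal-ion replicate 2 was the highest metal-ion library and so lay nearest to control, as it was for 399 of all 481 genes called lower (83.0%). Without that library 9 of the methyltransferases fell, where 16.5% of all tested genes did. Without any one of the other 5 libraries 0 or 1 of them fell, where 1.03 to 1.52% of all tested genes did. The groups did not overlap for 36.8% of the 19 genes, against 33.3% of all tested genes. The list mixes targets, from ribosomal and transfer RNA to histones and sterols. CHO2, a methyltransferase gene called higher, was kept out of it, so the 0 that rose leaves CHO2 aside. The 6 called did not include the genes named for histone or sterol methylation. Those ran from -0.40 to 0.10 on the log2 scale, so the fall was not shared by all users of S-adenosylmethionine in the list. The gene at -0.40, named for sterol methylation, had groups that did not overlap (edgeR adjusted p = 0.0924). It was called lower without metal-ion replicate 2 (edgeR adjusted p = 0.0019).

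**Figure D4:**
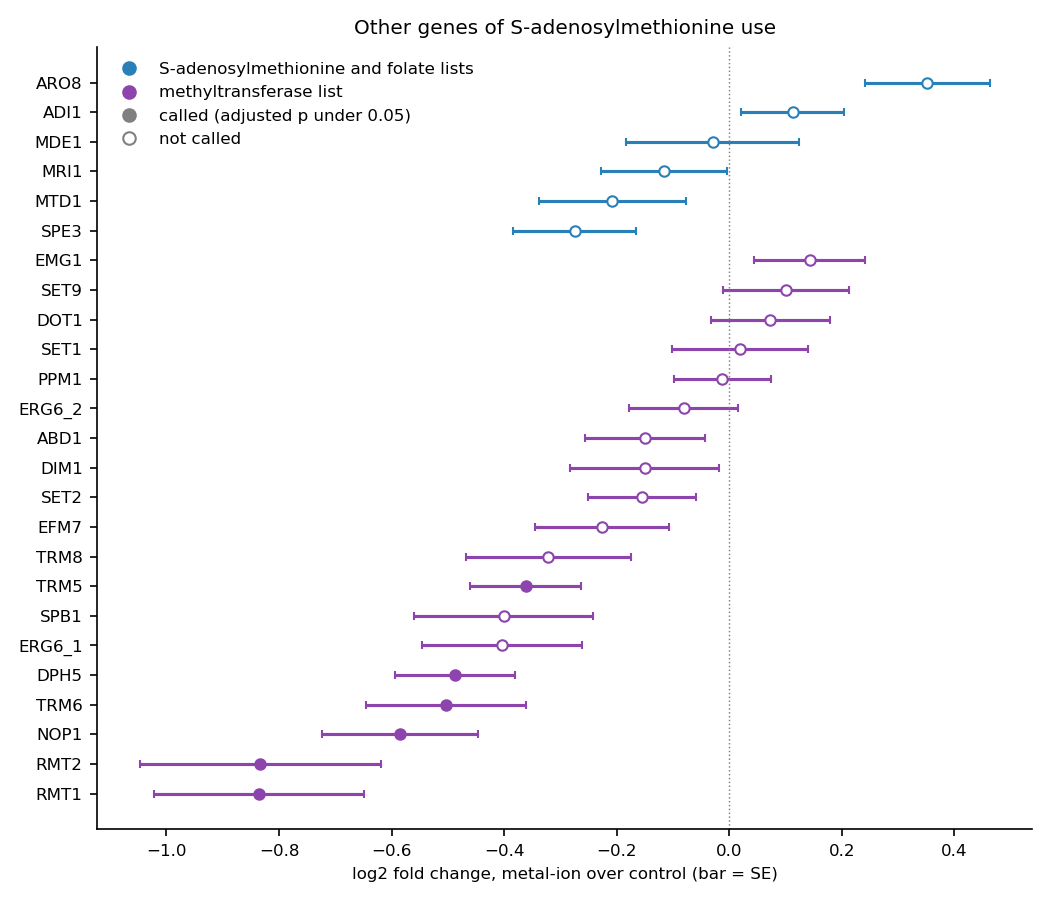
Log2 fold change of metal-ion over control (x axis, bars are SE) of the 25 tested genes (y axis) in the S-adenosylmethionine and folate lists (blue) and the methyltransferase list (purple), without the 7 genes above. Filled points were called at an adjusted p under 0.05: 6 methyltransferase genes, all below 0, and none of the blue points.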

How the data were processed

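Per the labels' protocols, mRNA was enriched and libraries were built with the NEBNext Ultra RNA kit, which is not strand-specific, and run on an Illumina HiSeq. TopHat2 is named per the submitters' processing notes; its version, the counting tool, build and annotation are not given in the sources used here. Deposited by the authors were whole-number counts per gene and FPKM values (scaled to gene length and library total) for 9836 genes in 6 libraries. Of these, 9151 carry a locus tag, all matched to RefSeq's annotation of assembly ASM2599979v1, which gave 882 symbols; as the files' build is unknown, no coordinates are printed. Promoter and protein sequences were not analysed here.

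Counts were tested with edgeR 4.0.16 in R 4.3.3 (quasi-likelihood, two-sided, TMM, default low-count filter, Benjamini-Hochberg over 9048 genes; called at adjusted p under 0.05). CPM use TMM factors; SE is the absolute log2 fold change over the root of F. Alternatives were other scalings and filters, DESeq2 1.42.0, limma 3.58.1 on log2(FPKM + 1) and log2(FPKM + 0.1), the replicate number as a block and each library left out. The fit was also run on simulated counts as a check of the code. These held no library that stands apart as metal-ion replicate 2 does, so they do not bear on how reliable the calls are here.

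Members, 8 lists of symbols and the rule for named genes (all members, all tested genes of the 5 lists on sulphate, methionine and cysteine, S-adenosylmethionine, folate and regulators, up to 3 called genes a direction of glutathione and methyltransferase lists, the 5 genes most like MET26 and CYS3 with at least 10 CPM) were chosen with earlier results of these data known. The glutathione, regulator and spore lists matched 0 symbols; sulphate and methionine lists matched members only. Nothing says that libraries of a group were separate cultures, so the p-values reflect sample-to-sample spread that may be technical. Replicates differed beyond sampling noise (chi-square per degree of freedom 14.4 to 121), so each counted once.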

Additional observations from a re-analysis of the deposited data

How the results depend on the processing

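All 7 genes kept their sign under all 15 alternatives. MET26, MET3 and ETH1 were also called under all 15, MET2 under 14, SAH1 and CHO2 under 11 and CYS3 under 8. CYS3 was not called with total counts alone or with limma on log2(FPKM + 0.1), at log2 fold changes of -0.26 in both. With each library left out in turn, log2 fold changes ran from 0.45 to 0.51 for MET2, -0.42 to -0.32 for CYS3, 0.38 to 0.71 for SAH1 and 0.37 to 0.56 for CHO2. Calls over all genes ran from 348 without control replicate 2 to 2829 without metal-ion replicate 2, against 1084 with all libraries; leaving out a library also leaves fewer to test. In the S-adenosylmethionine list 1 gene was called with total counts alone, 1 with a mean of at least 10 CPM, 2 with DESeq2, 1 with the replicate block and 0 to 3 with a library left out, against 0. The folate list gave 0 or 1 and the methyltransferase list 0 to 9 with a library left out.

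Deviations of same-numbered libraries from their group means correlated at 0.02, 0.14 and 0.03, against -0.14 to 0.10 for libraries of different numbers. These low values do not settle whether replicate numbers pair the libraries. The replicate block gave 1365 calls over all genes and kept the calls of all 7 genes, with 1.46 for MET26. The cause of the changes without metal-ion replicate 2 was not tested. With 3 libraries a group, differences the size of that of CYS3 lie near what these data resolve.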

Other observations

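Genes at the borders of the cycle were picked from the annotated symbols, outside the rule for named genes. Earlier results of these data were known, and THR1 is also among the genes most like MET26, so their calls are a description. THR1 (gene-MAP00_006984), named for homoserine kinase, had 213, 218 and 219 CPM in metal-ion replicates 1 to 3, against 154, 157 and 161 CPM in control replicates 1 to 3, and rose by 0.46 ± 0.09 on the log2 scale (edgeR adjusted p = 0.00874). Its size was close to that of MET2, at 0.48, which draws on the same homoserine, and metal-ion replicate 2 did not stand out. SER33 (gene-MAP00_006955), of the serine synthesis that feeds folate with methyl groups, had 698 ± 70.1 CPM in metal-ion and 545 ± 53.0 CPM in control mycelia (SD, n = 3 each) and was not called, at 0.36 ± 0.12 on the log2 scale (edgeR adjusted p = 0.0828).

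CDO1 (gene-MAP00_004559), named for cysteine dioxygenase, which degrades cysteine, fell with CYS3: it had 75.5, 64.1 and 70.6 CPM in metal-ion replicates 1 to 3, against 82.5, 90.3 and 101 CPM in control replicates 1 to 3 (log2 fold change -0.38 ± 0.11, edgeR adjusted p = 0.0413). SPE1 (gene-MAP00_003835), named for the ornithine decarboxylase of polyamine synthesis, fell as well, with 94.2 ± 5.32 CPM in metal-ion and 119.7 ± 10.7 CPM in control mycelia (log2 fold change -0.35 ± 0.10, edgeR adjusted p = 0.0445). The calls of CDO1 and SPE1 lie near the threshold of 0.05. With total counts alone their log2 fold changes were -0.27 and -0.24. TRX1 and TRR1, named for thioredoxin and its reductase, which supply electrons to sulphate reduction, did not pass, at log2 fold changes of -0.05 ± 0.10 and -0.13 ± 0.10. CDO1, SPE1 and THR1 had no gene model overlapping theirs.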
